A study of Mus musculus with 6 samples.

Results

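Expression of 10 cytokine genes, the interleukins Il1a, Il1b, Il6, Il15, Il18 and Il34, the IL-6 family cytokine Lif and the colony-stimulating factors Csf1, Csf2 and Csf3, was examined in tumor endothelial cells (TECs) with and without the autophagy gene Atg5. The genes were taken by name, and all 10 had a row among the 750 genes of the deposited NanoString nCounter table, in which barcoded probes are counted without amplification. TECs were sorted as live CD45-CD31+ cells from melanomas that the mouse line B16-F10 had formed under the skin of mice of strain C57Blk6, at day 18 after 250000 cells were implanted. The table holds 6 samples, of which replicates 1, 4 and 6 were WT (n = 3) and replicates 2, 3 and 5 ATG5BECKO (n = 3). ATG5BECKO mice carried floxed Atg5 (Atg5 fl/fl) and a Pdgfb-CreERT2 driver, which is active in blood endothelial cells, and received tamoxifen. WT mice were their Cre-negative littermates, and whether tamoxifen was given to them too is not stated in the methods or labels. The cross included a Rosa26 tdTomato reporter. Mice of both sexes were used in the study, and neither sex nor age is given by sample, nor whether a sample was 1 mouse or a pool, so that p-values reflect only how far these 6 samples varied. No probe for Atg5 was in the table, and the share of cells with the deletion could therefore not be read from these values.

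Endothelial cells lie between blood and tissue and, when exposed to inflammatory stimuli, secrete cytokines that act on leukocytes and on the bone marrow. IL-6 is induced through NF-κB, C/EBP and AP-1 factors, and its messenger is short-lived, being degraded by the RNase Regnase-1 (Zc3h12a). IL-1α and IL-1β open NF-κB signaling in the cells that receive them, and IL-1β and IL-18 are cut to their active forms by caspase-1. M-CSF (Csf1) and IL-34 share the receptor CSF1R on macrophages, GM-CSF (Csf2) and G-CSF (Csf3) act on myeloid cells and neutrophils, and IL-15 supports NK cells and memory T cells.

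The promoters of the 3 members that passed the low-signal filter of the study, Il6, Csf1 and Il18, are shown because NF-κB is a known inducer of Il6. Each run holds 250 bases before and 50 bases after the start of the gene in RefSeq (build GRCm38.p6), on the strand of the gene, at chr5:30012864-30013163 (plus strand) for Il6, chr3:107760420-107760719 (minus strand) for Csf1 and chr9:50554450-50554749 (plus strand) for Il18. Capitals mark a match to the κB consensus on either strand.
Il6: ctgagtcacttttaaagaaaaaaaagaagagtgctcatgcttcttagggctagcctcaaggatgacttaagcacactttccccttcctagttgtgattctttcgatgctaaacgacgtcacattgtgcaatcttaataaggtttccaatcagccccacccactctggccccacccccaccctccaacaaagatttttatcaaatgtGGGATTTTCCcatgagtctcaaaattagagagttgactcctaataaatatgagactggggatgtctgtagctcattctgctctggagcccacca
Csf1: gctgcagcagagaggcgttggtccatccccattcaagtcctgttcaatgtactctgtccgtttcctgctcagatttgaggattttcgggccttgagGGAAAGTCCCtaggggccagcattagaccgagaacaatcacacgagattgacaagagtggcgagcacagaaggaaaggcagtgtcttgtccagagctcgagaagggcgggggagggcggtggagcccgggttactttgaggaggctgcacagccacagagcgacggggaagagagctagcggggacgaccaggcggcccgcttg
Il18: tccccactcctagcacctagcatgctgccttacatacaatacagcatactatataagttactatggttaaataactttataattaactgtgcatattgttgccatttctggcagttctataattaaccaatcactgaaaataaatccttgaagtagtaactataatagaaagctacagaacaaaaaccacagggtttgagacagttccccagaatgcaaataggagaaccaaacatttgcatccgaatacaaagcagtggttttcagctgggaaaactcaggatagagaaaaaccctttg
Of the 10 members, 7 had a promoter in the RefSeq table, and Csf3, Il15 and Il34 had none there. The κB consensus was found in 2 of them. In Il6 it read GGGATTTTCC and began at -44 from the start of the gene. In Csf1 the match lay on the opposite strand and began at -154. The same search matched 4.51% of the 32851 promoters in the table and 11.0% of the 363 promoters of genes tested here. The AP-1 motif TGANTCA, which is its own reverse complement, was found in Il6 (at -249), Lif (at -228) and Il1a (at -12). This motif matched 7.81% of all promoters and 9.09% of those of genes tested here. The TATA box TATAAA was found in Il1a, Il1b and, on the opposite strand, Il18. This box matched 13.6% of all promoters and 13.2% of those of tested genes. For Il1a and Il1b the start used for the promoter window lay inside the gene as placed in RefSeq, and -12 counts from that start. None of these matches overlapped another. They describe letters in a window and do not show that a factor was bound.

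The deposited values were log2 counts, normalized by the authors with 1 factor per sample and without background subtraction, and whole counts could be recovered from them for 100% of values. Total counts ran from 76784 (WT replicate 6) to 244561 (WT replicate 4), so that low genes were measured least precisely in WT replicate 6. On the first principal component of the 379 tested genes (57.1% of the variance), WT replicate 4 stood apart at -13.34, with the other samples between -3.41 and 6.28. For Il6, Il18, Il1b, Il34 and Csf3 the log2 fold changes are given with and without it. Those of other genes are given with it only. All 13 endothelial identity genes, among them Pecam1, Cdh5 and Kdr, were above background in all 6 samples, with summed normalized counts of 31465 to 33795 in WT and 28439 to 42291 in ATG5BECKO TECs. Of 17 myeloid markers, 0 were above background in all 6 samples and 10, Ptprc and Adgre1 included, in none, with sums of 230.1 to 656.2 against 443.6 to 556.3. With the 95th percentile of the background genes as the limit, C1qb and Cd14 were above it in all 6 samples. Csf1r, a receptor of macrophages that was not on this list, was above background in all 6 at the stricter limit. Of the 6 tested myeloid markers 5 had a positive log2 fold change, as did 74.4% of all tested genes. Cd14, a co-receptor for lipopolysaccharide, was higher in ATG5BECKO TECs without overlap, as were 25.6% of the tested genes. With a log2 fold change of 0.97 it also passed the thresholds of the study (unadjusted p under 0.05 and a log2 fold change of 0.7 or more in size), as 10.8% of the tested genes did in this direction. The 12 lymphocyte markers summed to 110.6 to 278.8 against 169.4 to 237.9, and 11 were above background in no sample. In the 10 fibroblast and mural markers the sums were 739.5 to 1252 in WT and 561.6 to 867.0 in ATG5BECKO TECs. The 3 of these markers that passed the study thresholds, Thy1, Col6a3 and Olfml2b, were lower in ATG5BECKO TECs and made up all the genes called in that direction (0.792% of those tested). In sorted cell populations fewer cells of a type and less RNA per cell cannot be told apart, and the part of these cells in the cytokine values was not tested.

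To state which members were above background, the table holding no control probes, 24 genes of the germ line, epithelia, liver, kidney and nervous system (Magea3, Cdh1, Ren1, Pnoc and others) were taken as a stand-in, and a member was called above background in a sample where its log2 level exceeded their mean plus 2 SD in that sample. That limit lay between 4.76 (WT replicate 4) and 6.26 (ATG5BECKO replicate 2). It was highest in ATG5BECKO replicate 2 and WT replicate 1 (6.00), where the SD of the 24 genes was 1.17 and 1.10, against 0.82 or less elsewhere. Lamb3, 1 of the 24 genes, had 1 count in both, a low value that widens the SD. Il6 was above the limit in 6 of 6 samples, Csf1 in 3 (WT replicates 4 and 6 and ATG5BECKO replicate 3), Il18 in 1 (WT replicate 6), and Lif, Csf2, Csf3, Il1a, Il1b, Il15 and Il34 in none. Csf1 thus missed the limit in ATG5BECKO replicate 2, at its highest level of 5.85, and passed in WT replicate 4, at its lowest of 5.07. For comparison, 59.6% of the 379 genes kept by the low-signal filter of the study were above the limit in all 6 samples, and 90.3% of the 371 genes under that filter were above it in none. The 3 members that were above the limit in at least 1 sample were also those kept by the filter of the study. With the 95th percentile of the 24 genes as the limit, Il6 and Csf1 were above it in 6 samples, Il18 in 4, Il1b in 3, Il15 in 2 and Csf3 in 1. The mean level of the 24 genes itself differed between samples, at 3.80, 3.13 and 4.49 in WT replicates 1, 4 and 6 and 3.92, 3.61 and 4.24 in ATG5BECKO replicates 2, 3 and 5, and 8 of the 10 members were lowest in WT replicate 4, where this level was lowest too.

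**Figure D1:**
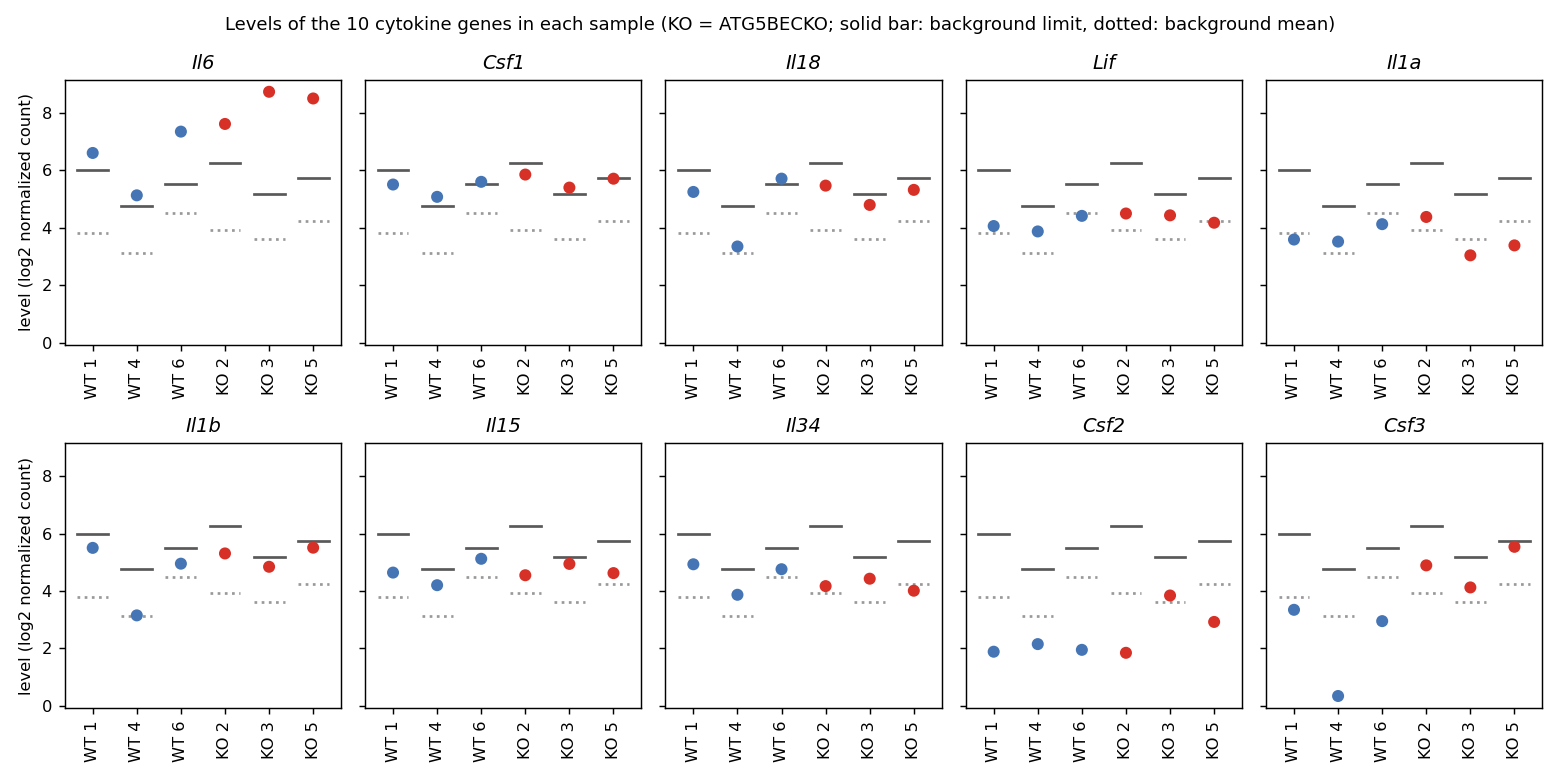
Levels of the 10 genes (y axis, log2 normalized count) in each WT (blue) and ATG5BECKO sample (red, labelled KO), 1 point per sample, with the background limit (solid bar) and the mean of the 24 background genes (dotted bar) of that sample. Il6 is the one gene above the solid bar in all 6 samples, and Csf3 lies under it throughout.

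Il6 was higher in ATG5BECKO TECs. Its log2 level was 6.60, 5.13 and 7.35 in WT replicates 1, 4 and 6, and 7.61, 8.73 and 8.50 in ATG5BECKO replicates 2, 3 and 5. The groups did not overlap, but the lowest ATG5BECKO sample and the highest WT sample lay close together, and their normalized counts of 195.6 (95% Poisson interval 170 to 223) and 162.6 (130 to 201) overlapped in counting error, which is the only error these intervals cover. The recovered counts were 105, 55 and 84 in WT and 217, 414 and 381 in ATG5BECKO samples. The log2 fold change was 1.92 (standard error 0.58, 95% confidence interval 0.54 to 3.30), at levels of 8.28 ± 0.59 (SD, n = 3) against 6.36 ± 1.13 (SD, n = 3). It passed the thresholds of the study with an unadjusted p of 0.0134 from limma, as 10.8% of all 379 tested genes did in this direction, and it was 1 of the 3 tested members to do so. Samples without overlap in this direction were seen for 25.6% of the tested genes. Adjusted over the 379 genes, limma gave adjusted p = 0.163, which misses 0.05, as did all other genes (0% called, against 61 genes at an unadjusted p under 0.05, 20 with voom on the recovered counts and 0 with the methods' t-test at an adjusted p under 0.05). The exact two-sided permutation test gave p = 0.1, the smallest that 3 against 3 samples allow.

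The size of the Il6 difference depended on WT replicate 4, its lowest sample. Without it the value was 1.31 (standard error 0.38) with adjusted p = 0.228, and without WT replicate 6, the shallowest sample, it was 2.42 with adjusted p = 0.0616. Across the 379 tested genes, the log2 fold change had a median of 0.24. Median centring of each sample moved that median to -0.14 and Il6 to 1.54 (standard error 0.48). Measured against the mean of the 24 background genes in the same sample, Il6 stood at 2.80, 2.00 and 2.85 in WT and 3.69, 5.12 and 4.26 in ATG5BECKO samples, again without overlap. The log2 fold change was positive in all 18 settings run and passed the thresholds of the study in 16, the exceptions being the methods' t-test and the fit without ATG5BECKO replicate 3.

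**Figure D2:**
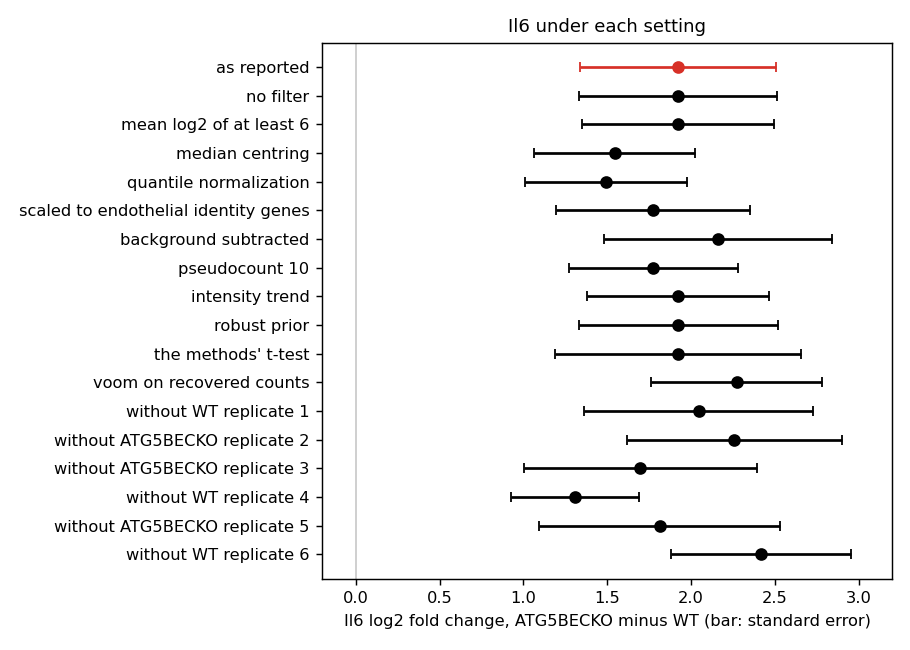
Il6 log2 fold change (x axis, ATG5BECKO minus WT, with its standard error) as reported (red) and under the other settings (black), 1 per line. Values lie between 1.31 (without WT replicate 4) and 2.42 (without WT replicate 6), all above 0.

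Among the 378 other tested genes, those whose log2 levels were most like Il6 over the 6 samples were Tnfaip3 (Pearson r = 0.997), Dusp2 (0.990), Chuk (0.979), Egr1 (0.974) and Sele (0.974). These are correlations over 6 samples that share the difference between groups and the scale of each sample, and they are given as a description. Tnfaip3 encodes A20, which ends NF-κB signaling and is induced by it. Its log2 level was 6.89, 5.63 and 7.67 in WT replicates 1, 4 and 6, and 7.73, 8.96 and 8.58 in ATG5BECKO replicates 2, 3 and 5. The order of the 6 samples was the same as for Il6, with WT replicate 6 just under ATG5BECKO replicate 2. Egr1 and Nfkbia had this order too, so that it was not particular to Tnfaip3. After median centring r was 0.996 for Tnfaip3 and 0.960 for Egr1, an immediate-early transcription factor, but 0.272 for Chuk, which encodes the kinase IKKα. Dusp2, a phosphatase of MAP kinases, and Sele, the adhesion molecule E-selectin, stood at 0.968 and 0.962.

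**Figure D3:**
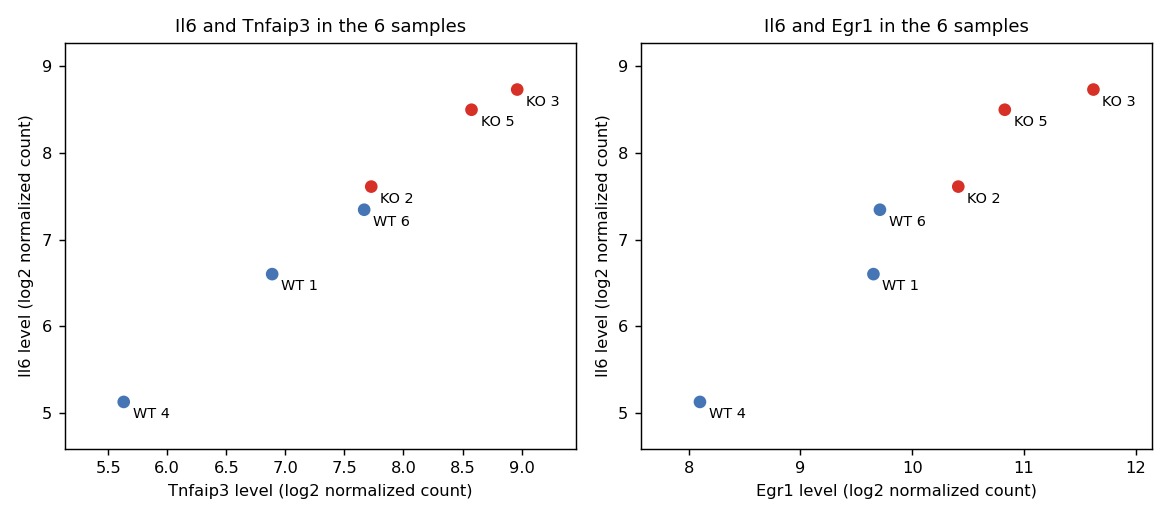
Il6 level (y axis) against the levels of Tnfaip3 (left) and Egr1 (right), all in log2 normalized counts, 1 point per sample (WT blue, ATG5BECKO red and labelled KO). The 6 samples stand in the same order for Il6, Tnfaip3 and Egr1, from WT replicate 4 to ATG5BECKO replicate 3.

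Genes that act on Il6 transcription or on the decay of its messenger were read as a list of 7, all tested. All 7 had a positive log2 fold change, as did 74.4% of all tested genes (median 0.94, against 0.24 for all tested genes), and of these 3 passed the study thresholds, against 10.8% of all tested genes. These were Atf3, a stress-induced factor of the AP-1 type, with 1.51 (standard error 0.42), Nfkbia, the inhibitor IκBα, with 1.16 (standard error 0.33), and Tnfaip3, with 1.69 (standard error 0.55). Zc3h12a had 0.79 and Cebpb, which encodes C/EBPβ, 0.94, and both missed them (unadjusted p of 0.0899 and 0.124 from limma). The NF-κB subunits Rela (0.40) and Nfkb1 (0.27) missed them too (unadjusted p of 0.0537 and 0.170 from limma). The list holds inducers as well as inhibitors, and Nfkbia and Tnfaip3, which passed, restrain NF-κB signaling. Immediate-early and stress genes, which also respond to cell handling, had log2 fold changes of the same sign. Of 8 tested members of that list, 8 were positive, against the 74.4% of all tested genes, and 3 passed (Egr1, Atf3 and Dusp2), against 10.8%. Its mean log2 level was 8.02, 7.10 and 7.93 in WT and 8.26, 8.91 and 8.44 in ATG5BECKO samples. The list shares Atf3, Cebpb and Zc3h12a with the list of Il6 regulators, and its part in the Il6 difference was not tested. Counts of positive genes depend on the scale of each sample. After median centring 33.0% of all tested genes were positive, and the gene lists here and elsewhere were read without it.

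Csf1 and Il18, the other members kept by the filter, did not pass any threshold. Csf1, the growth factor of macrophages, was at log2 levels of 5.50, 5.07 and 5.60 in WT replicates 1, 4 and 6 and 5.85, 5.40 and 5.71 in ATG5BECKO replicates 2, 3 and 5. The groups overlapped within a range of 0.78 over all 6 samples, the narrowest of the 3 tested members. The log2 fold change was 0.26 (standard error 0.22, 95% confidence interval -0.27 to 0.79) with adjusted p = 0.605 from limma, which lies near the median of all genes, and it turned to -0.12 after median centring. The exact two-sided permutation test gave p = 0.3. Among the genes most like Csf1 over the 6 samples were 4930578C19Rik, Mx1, Tlr9 and Uba7, with r between 0.954 and 0.989. After median centring r was 0.928 for 4930578C19Rik, 0.780 for Mx1, 0.806 for Tlr9 and 0.754 for Uba7.

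Il18, an IL-1 family cytokine, was at log2 levels of 5.25, 3.35 and 5.71 in WT replicates 1, 4 and 6 and 5.46, 4.79 and 5.32 in ATG5BECKO replicates 2, 3 and 5. WT samples lay at both ends of the range, WT replicate 4 lowest with 16 counts and WT replicate 6 highest with 27 counts, which its depth scaled up. The log2 fold change was 0.43 (standard error 0.59, 95% confidence interval -0.98 to 1.83), with adjusted p = 0.791 from limma. Without WT replicate 4 it turned to -0.28. The genes most like Il18 over the 6 samples were C1qb, Cdh2, Pms2, Spib and Lyz1 (r between 0.984 and 0.994). After median centring r was between 0.708 (Pms2) and 0.984 (Cdh2), and without WT replicate 4 it was between 0.868 (Lyz1) and 0.970 (C1qb). C1qb and Lyz1 among them are known from myeloid cells. Their mean log2 levels over the 6 samples lay between 5.20 and 5.61, in the range of the background limits.

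**Figure D4:**
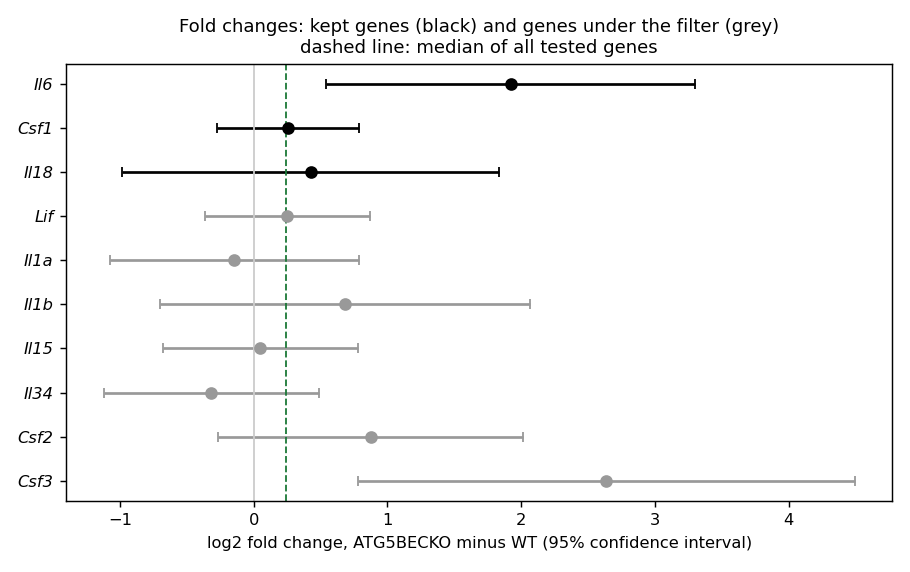
Log2 fold change (x axis, ATG5BECKO minus WT, with the 95% confidence interval) of the 3 genes kept by the low-signal filter (black, fit on 379 genes) and the 7 under it (grey, fit on 750 genes), with the median of the 379 tested genes as a dashed line at 0.24. The intervals of Il6 and Csf3 lie above 0, and those of the other 8 genes include it.

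Csf3, which encodes G-CSF, the growth factor of neutrophils, was under the filter and never above the background limit, but its 3 ATG5BECKO values all exceeded its 3 WT values. The recovered counts were 11, 2 and 4 in WT replicates 1, 4 and 6 and 33, 17 and 49 in ATG5BECKO replicates 2, 3 and 5. On the log2 scale these were levels of 3.35, 0.35 and 2.95 against 4.89, 4.13 and 5.54. The groups did not overlap, although the Poisson intervals of the nearest samples did, 5.49 to 19.7 for 11 counts in WT replicate 1 and 9.90 to 27.2 for 17 counts in ATG5BECKO replicate 3. Against the mean of the 24 background genes in the same sample, the 3 WT samples lay below it (by -0.45, -2.78 and -1.54) and the 3 ATG5BECKO samples above it (by 0.98, 0.51 and 1.30). Groups without overlap in this direction were seen for 1.62% of the 371 genes under the filter, and Csf3 was 1 of the 7 members there. None of the 7 was lower without overlap, against 1.08% of those genes. Pooled over samples, 99 counts against 17 gave a ratio of 5.89 after scaling by the factors (95% interval 3.50 to 10.5, exact binomial, counting error only). This interval leaves out the variation between samples. It also excluded a ratio of 1 for Csf1, Csf2, Il18 and Il1b (1.15 to 2.07 for Il1b), whose groups overlapped, and therefore does not set Csf3 apart. In the fit on all 750 genes, where 5.73% of all genes and 1.35% of those under the filter were higher at the study thresholds, the log2 fold change of Csf3 came to 2.64 (standard error 0.79), with adjusted p = 0.447 and unadjusted p of 0.0119 from limma. Without WT replicate 4, with its 2 counts, it was 1.70 (standard error 0.42) and adjusted p = 0.407. The exact two-sided permutation test gave p = 0.1, the smallest possible here. Over the 6 samples Csf3 and Il6 had r = 0.88, given as a description. Csf3r, the receptor of G-CSF, was above background in no sample.

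**Figure D5:**
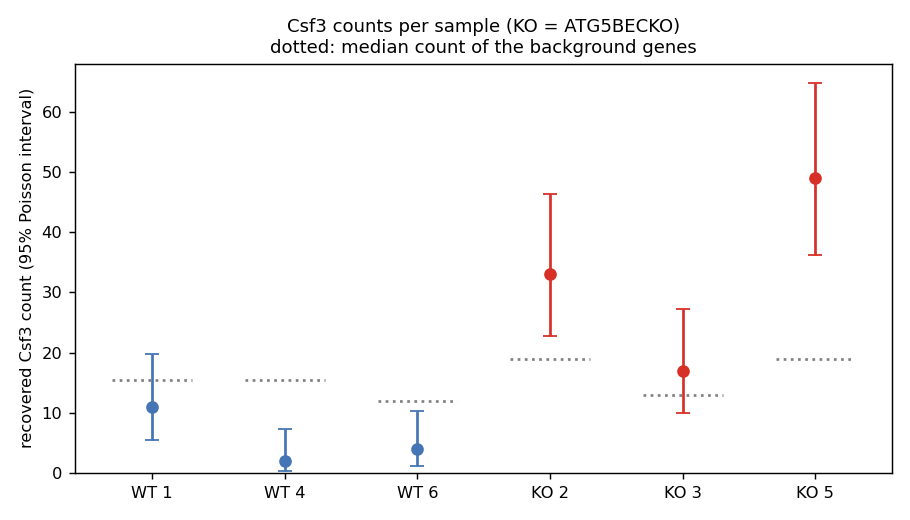
Recovered Csf3 counts (y axis, from 0) in the WT (blue) and ATG5BECKO samples (red, labelled KO), 1 point per sample with its exact 95% Poisson interval, and the median count of the 24 background genes in that sample as a dotted line. WT samples hold 2 to 11 counts and ATG5BECKO samples 17 to 49, and the counts are not scaled for depth.

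For the other 6 members under the filter the groups overlapped, and in the fit on 750 genes each confidence interval of the log2 fold change included 0. Il1b, the secreted IL-1 made mostly by activated myeloid cells, was at log2 levels of 5.50, 3.15 and 4.95 in WT and 5.31, 4.85 and 5.51 in ATG5BECKO samples. Only WT replicate 4 stood apart, and without it the log2 fold change went from 0.69 (95% confidence interval -0.70 to 2.07) to -0.0061. Il1a, which is held inside cells as an alarmin, lay between 3.04 and 4.37 with a log2 fold change of -0.14 (-1.08 to 0.79). Lif, the IL-6 family cytokine, lay between 3.87 and 4.49, with 11 to 25 counts and a log2 fold change of 0.25 (-0.37 to 0.87). Il15 lay between 4.20 and 5.12, both ends being WT samples, with 0.05 (-0.68 to 0.78). Il34, the other ligand of CSF1R, was the member with the lowest log2 fold change, -0.32 (-1.12 to 0.49), and its value was negative in all 10 settings run. Without WT replicate 4 it was -0.64 (-1.28 to -0.0049), the one setting in which its interval left out 0, with adjusted p = 0.559 from limma. Csf2, which encodes GM-CSF, had 2 to 14 counts. Its value of 14 in ATG5BECKO replicate 3 was apart from the 2 to 8 counts of the other samples, and the log2 fold change was 0.88 (-0.26 to 2.02). It rested on single samples, being 0.39 without ATG5BECKO replicate 3 and 1.39 (0.44 to 2.33) without ATG5BECKO replicate 2, where it passed the study thresholds with adjusted p = 0.704 from limma. With all 6 genes above the background limit in no sample, these intervals do not bound a change in the transcript itself, and after background subtraction that of Lif widened to -1.99 to 3.74.

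Receptors and partners of these cytokines were read from lists of the panel. Neither Il6ra, Cntfr nor Il11ra1, receptor chains of the IL-6 family, was above background in any sample, whereas the signal genes Jak1, Jak2, Stat3 and Ptpn11 were in all 6. None of these 4 passed the thresholds, the lowest p being those of Jak1 (log2 fold change 0.35, standard error 0.17), Jak2 (0.53, standard error 0.30) and Stat3 (0.21, standard error 0.22). Among receptors of the colony-stimulating factors, Csf2rb, the β chain shared by the GM-CSF, IL-3 and IL-5 receptors, was at log2 levels of 6.46, 6.38 and 7.02 in WT and 6.89, 7.81 and 7.15 in ATG5BECKO samples. The groups overlapped and the log2 fold change was 0.67 (standard error 0.30, adjusted p = 0.329 from limma). Csf1r, a receptor of macrophages, was above background in all 6 samples, its log2 fold change being -0.04 (standard error 0.34). Of the IL-15 receptor chains, Il2rg, the common γ chain, was above background in all samples and higher in every ATG5BECKO sample, as 25.6% of tested genes were, but its log2 fold change, 0.37 (standard error 0.18, adjusted p = 0.353 from limma), missed both thresholds of the study, and Il2rb was above background in none. Jak3, the kinase bound to the γ chain, had 0.03 (standard error 0.19).

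In the IL-1 and IL-18 system, 4 of 8 genes were tested and all 4 were positive, against 74.4% of all tested genes, and Casp1 was the one to pass the study thresholds as higher, where 10.8% of all tested genes did. Casp1, which encodes the protease that activates IL-1β and IL-18, was at log2 levels of 5.62, 4.52 and 5.48 in WT replicates 1, 4 and 6 and 6.31, 6.21 and 6.15 in ATG5BECKO replicates 2, 3 and 5. The ATG5BECKO samples were within 0.16 of each other and above all WT samples, as was the case for 25.6% of the tested genes. They were above the background limit in 3 of 3 against 0 of 3 in WT, where WT replicate 6 lay just under its limit of 5.51. With the 95th percentile of the background genes as the limit, Casp1 was above it in all 6 samples. Its log2 fold change reached 1.02 (standard error 0.31), at adjusted p = 0.163 from limma. WT replicate 4 was its lowest sample. The value is given with that sample and without median centring only, so whether the pass holds otherwise is not shown. Il18bp, the secreted antagonist of IL-18, and Myd88, the adaptor of IL-1 and IL-18 receptors, were above background in all 6 samples, with 0.53 (standard error 0.29) for Il18bp and 0.33 (standard error 0.19) for Myd88, neither of which passed. Nlrp3, Il33, Il18r1 and Il1rn were above background in no sample. Of 12 other cytokines on the panel, Tnf, Ifng and Il11 among them, 2 were tested, Tslp (0.14, standard error 0.42) and Il16 (-0.05, standard error 0.32), and 0 passed the thresholds in either direction.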

How the data were processed

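TECs of 3 WT and 3 ATG5BECKO samples were measured on the NanoString nCounter. The deposited log2 values are counts that the authors normalized in nSolver with 1 factor per sample from housekeeping genes. Whole counts were recovered as multiples of the smallest step in each sample (tolerance 0.01). Total counts ran from 76784 to 244561.

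Names of the 379 genes kept by the authors' low-signal filter were read from the study's source data, and its comparison values were not used. These genes were tested with limma 3.58.1 (lmFit, eBayes) in R 4.3.3 with Benjamini-Hochberg adjustment, and all 750 genes in an alternative. Counts of calls use an adjusted p under 0.05 or the study's thresholds. The fit was tested on simulated data. The members and lists were chosen with earlier results of these data known. Besides the members, up to 3 tested genes per list by p, receptors above background and the 5 genes most like each tested member were named, except where an item is not reported here. Other genes of these lists were named after their values were seen. Promoters came from RefSeq. Alternatives were no filter, a mean log2 level of at least 6, quantile normalization, median centring, background subtraction, scaling to endothelial genes, a pseudocount of 10, an intensity trend, a robust prior, the methods' t-test, voom and leaving out each sample. Figures were drawn with matplotlib 3.10.9.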

Additional observations from a re-analysis of the deposited data

How the results depend on the processing

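The count of genes at an adjusted p under 0.05, 0 as reported, was 1 after background subtraction, 20 with voom on the recovered counts and between 0 and 18 when 1 sample was left out, the 18 without WT replicate 6. At the thresholds of the study, median centring gave 17 genes higher and 13 lower in place of 41 and 3, and quantile normalization 21 and 9. Il6 was called with voom (log2 fold change 2.27, adjusted p = 0.0442), and its leave-one-out values ran from 1.31 to 2.42 (adjusted p from 0.0616 to 0.388). Csf1 turned to -0.12 after median centring, and Il18 to -0.28 without WT replicate 4, its other leave-one-out values reaching 0.90. The cause was not tested. With a mean log2 level of at least 6, Csf1 and Il18 were not among the genes tested. The number of members above background in all 6 samples was 1 as reported, and 2 with the 95th percentile or with the mean plus 1 SD of the background genes. Fits that combine all 750 genes with background subtraction, median centring, an intensity trend or leaving out a sample were chosen after seeing the data. In all of them Csf3 was positive, between 1.70 and 3.31, whereas Lif turned to -0.13 after median centring. Background subtraction moved Il15 to -0.51, Il34 to -1.58, Lif to 0.87, Il1b to 1.74 and Csf2 to 0.00. No paired analysis was possible because the sample numbers in the labels are not shared between the groups. Depth limits the low members most, since 1 count in WT replicate 6 is worth a normalized value of 1.94, against 0.636 in WT replicate 4.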
